A study of Mus musculus with 2 samples.

Results

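The genes examined here carry the signal of leukemia inhibitory factor (LIF), the cytokine that holds mouse embryonic stem cells in self-renewal. They are the ligand gene Lif, the receptor chain genes Lifr, Il6st (gp130) and Osmr, the Janus kinase genes Jak1 and Jak2, the transcription factor gene Stat3, and the feedback genes Socs2 and Socs3. They were taken as a fixed list of 9 genes, out of 18193 genes named on the array, with every probe set that names a listed gene and no other, which gave 30 of 45037 probe sets. Expression was measured in the female mouse embryonic stem cell line PGK12.1, made from blastocysts of a 129 mother and a (129 X PGK)F1 father, at passage 14 to 18. Both groups came from cells kept with LIF at 1000 U/ml on embryonic fibroblast feeders, which were removed by a 30 min adhesion step before collection or differentiation. The first group is undifferentiated cells (day 0), and the second is PGK12.1 cells differentiated as embryoid bodies for 15 days. Whether LIF was present during those 15 days is not given in the sources used here. Each group is 1 Affymetrix array of 1 line, so no replicate error, test or p-value can be given, and differences are reported by size.

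LIF binds the receptor chain LIFR, which pairs with gp130. The Janus kinases JAK1 and JAK2 sit on the tails of these chains and phosphorylate them, which draws in STAT3, and phosphorylated STAT3 enters the nucleus and activates target genes. SOCS3 is among the targets and shuts the receptor down, closing a feedback loop. Oncostatin M, a related cytokine, signals through gp130 paired with OSMR, and interleukin 6 and interleukin 11 signal through gp130 with their own receptor chains. STAT dimers bind a palindrome of TTC and GAA separated by a few bases. Promoters of the listed genes and of LIF-STAT3 targets of stem cells were searched for it, whatever their direction at day 15. The stretches that hold it are printed here.

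The palindromes TTCNNNGAA and TTCNNNNGAA, where N is any base, were searched in RefSeq windows of 300 bases (250 before and 50 after each annotated gene start, mouse build GRCm38.p6). Each reads the same on both strands, so a search of 1 strand covers both, and no 2 matches shared a base. Windows were found for 17 of 20 genes (the 9 genes and 11 LIF-STAT3 target genes of stem cells, without Socs2, Klf5 and Myc). A match was present in 3 of 24 windows (12.5%), against 14.6% of all 32851 windows, so the share was near that of promoters at large. The reference is C57BL/6J, not the mixed 129 and PGK background of the cells. The stretches follow 5′ to 3′ on the gene's strand, with the palindrome in capitals.
Socs3, chr11:117969482-117969550, minus strand, palindrome starting 154 bases before the gene start: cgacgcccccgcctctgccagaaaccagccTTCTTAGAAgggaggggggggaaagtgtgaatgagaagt
Gbx2, chr1:89931248-89931317, minus strand, palindrome starting 111 bases before the gene start: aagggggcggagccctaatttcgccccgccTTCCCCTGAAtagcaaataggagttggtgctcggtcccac
Sgk1, chr10:21881934-21881999, plus strand, palindrome starting 223 bases before 1 of its 6 gene starts: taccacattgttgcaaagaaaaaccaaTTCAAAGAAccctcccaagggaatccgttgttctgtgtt
A match is a description of these letters and not evidence of binding. Of the 8 of the 9 genes with a window, Socs3 alone had a match.

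Signals are the deposited array values, and folds are ratios of those signals. The log2 difference of a gene is log2(signal + 16) at day 15 minus that in undifferentiated cells, which damps the differences of dim genes. A gene is called at least 2-fold, or past 2-fold, where this difference reached 1 in either direction. The call is thus not made on the fold, and a signal ratio just over 2 can count as within 2-fold. A gene is represented by its brightest probe set, and counts use the genes whose mean log2 value reached the median of all probe sets (a signal of about 36.5). The highest bacterial control without target RNA read 35.6. A signal under 35.6 was set to 35.6 for a fold, which then reads "at least", and a probe set under 35.6 on both arrays gets no fold.

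All 9 genes passed the filter, Osmr only through its day 15 signal. Osmr and Jak2 were at least 2-fold higher at day 15 (2 of 9, against 16.5% of 11960 genes tested), Socs2 and Socs3 were at least 2-fold lower (2 of 9, against 8.41%), and 5 lay within 2-fold. With 9 genes, neither share was read as different from that of all genes. The median log2 difference of the 9 genes was 0.40, against 0.00052 for all genes tested. It was 0.19 with the mean over probe sets, 0.024 with scaling on the hybridization controls and -0.013 over the 6 genes that passed a filter at the 75th percentile. The ligand, the LIF receptor chains and the STAT3 transcripts thus differed by under 2-fold between the arrays, the second oncostatin M receptor chain and 1 kinase were higher at day 15, and both feedback genes were lower.

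**Figure D1:**
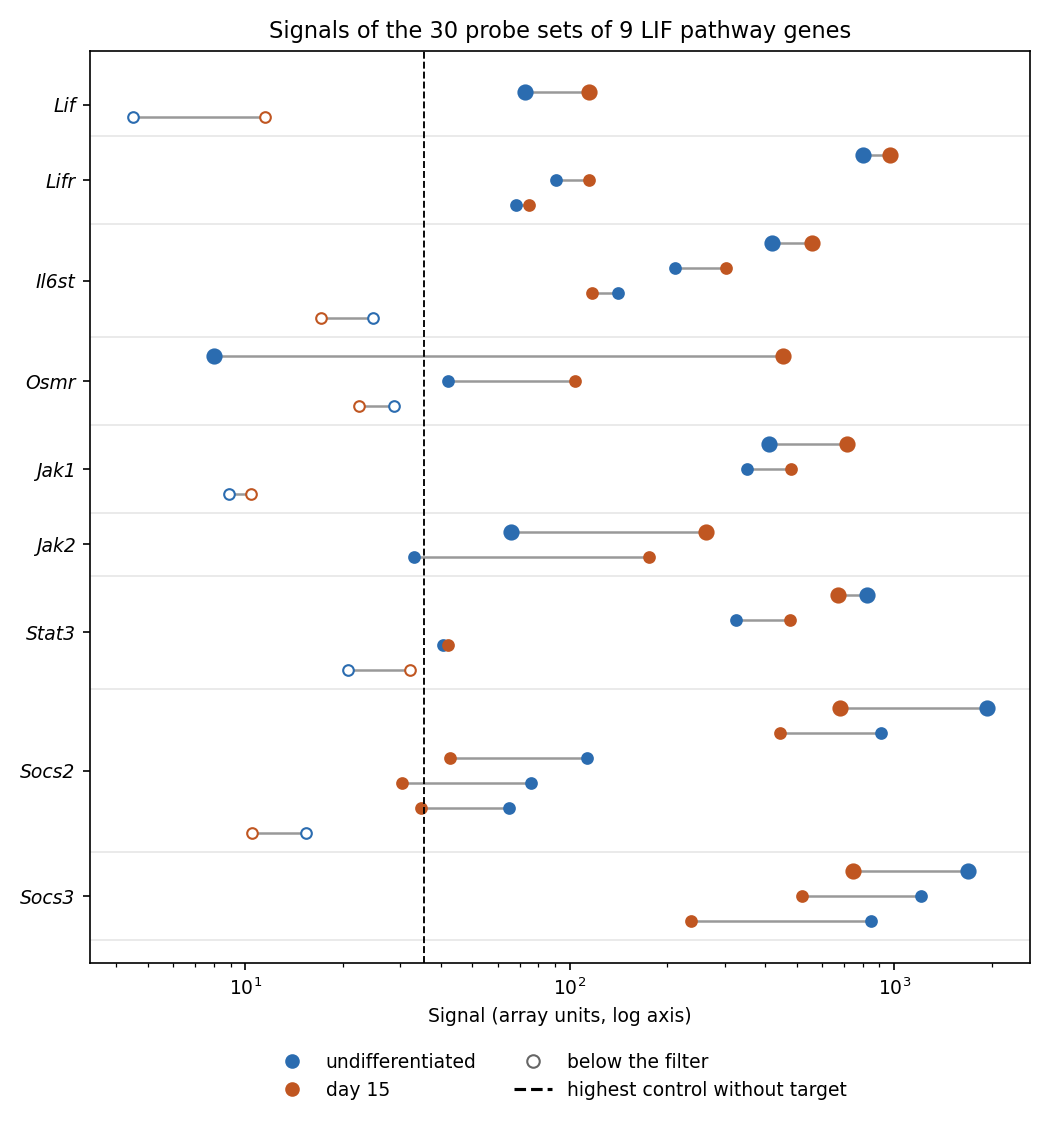
Signal of each of the 30 probe sets (log axis, array units) in undifferentiated cells (blue) and at day 15 (orange), joined by a line, with the larger points for the probe set that represents the gene, open points for probe sets below the filter and a dashed line at 35.6, the highest control without target RNA. The Socs2 and Socs3 points at day 15 lie left of those in undifferentiated cells in all 9 of their probe sets, and the longest line is that of Osmr, from 8.0 to 455. The dimmest Socs2 probe set lies left of the dashed line on both arrays, where signals set no order.

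The ligand was dim on both arrays. The brighter Lif probe set read 72.9 in undifferentiated cells and 114.8 at day 15, a 1.57-fold higher signal and a log2 difference of 0.56. The other read 4.5 and 11.5, below the controls without target on both arrays. So Lif had a single probe set with a usable signal, and 26.9% of genes tested had a larger difference.

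The receptor chains shared by LIF signalling were nearly level between the arrays. Lifr, the chain that binds LIF, read 801.7 before differentiation and 971.5 after it (1.21-fold higher, log2 difference 0.27). Its other probe sets read 90.8 and 114.2, and 68.4 and 74.7, so all 3 had the same direction, with log2 differences of 0.10 to 0.29. Scaling on the hybridization controls turned the Lifr difference to -0.11. Il6st, which encodes the common chain gp130, read 419.4 and 559.6 (1.33-fold higher, log2 difference 0.40). Another Il6st probe set read 211.6 and 302.6, and the next read 141.0 and 116.9, lower at day 15 with a log2 difference of -0.24. The last read 24.7 and 17.1, below the controls without target on both arrays. The direction of Il6st therefore differs between its probe sets, and its difference was 0.087 with the mean over probe sets and 0.024 with scaling on the hybridization controls.

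Osmr, the chain that pairs with gp130 for oncostatin M, was not measurable above the controls before differentiation in its brightest probe set. That probe set read 8.0 before differentiation and 455.3 after it, a difference of at least 12.8-fold. Its log2 difference of 4.30 rests on a signal below the controls and is no measured size. A second probe set read 42.0 and 104.0 (2.48-fold higher, log2 difference 1.05), and the last read 28.8 and 22.4, below the controls on both arrays. The brightest probe set passed the filter only through its day 15 signal, and the last did not pass. A shared direction among Osmr probe sets above the filter is thus partly set by the filter. Both of them were past 2-fold higher at day 15, but they differ widely in size. The value of the gene was 2.67 with the mean over those probe sets. It was 1.71 with the mean over all its probe sets and 1.29 with a pseudocount of 1, where the second probe set represents it, and in both settings Jak2 (1.86 and 1.97) had the larger difference.

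The kinases were higher at day 15 in all 4 of their probe sets above the filter. Jak2 read 66.1 before differentiation and 262.3 at day 15 (3.97-fold higher, log2 difference 1.76). Its other probe set read 33.1 and 175.9 (at least 4.94-fold higher, log2 difference 1.97), so both were past 2-fold. That dimmer probe set passed the filter only through its day 15 signal. Of genes tested, 8.14% had a larger difference than Jak2. Jak1, the kinase that gp130 signalling chiefly depends on, read 410.3 and 716.5 (1.75-fold higher, log2 difference 0.78). A second Jak1 probe set read 350.9 and 479.5 (1.37-fold higher), and the last read 8.9 and 10.4, below the controls without target. Jak1 stayed short of the 2-fold call in each probe set.

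Stat3, the transcription factor that LIF activates, gave opposite directions. The brightest probe set read 826.2 before differentiation and 669.4 at day 15 (1.23-fold lower, log2 difference -0.30). A second read 325.3 and 476.1 (1.46-fold higher, log2 difference 0.53). The next read 40.8 and 42.2, and the last, at 20.7 and 32.2, lay below the controls without target. With the mean over probe sets the difference of Stat3 was 0.16, and 0.089 over those above the filter. The array thus gives no single direction for Stat3 RNA, and it measures RNA and not the phosphorylated protein.

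The feedback genes were lower at day 15 in each of their probe sets above the filter. Socs3, the SOCS gene most directly induced by STAT3, read 1693.2 in undifferentiated cells and 744.9 at day 15 in its brightest probe set (2.27-fold lower, log2 difference -1.17). A second read 1205.4 and 519.8 (2.32-fold lower). Both carry the suffix x, which marks probes that may also bind other transcripts. The Socs3 probe set without a suffix read 845.4 and 235.7, 3.59-fold lower with a log2 difference of -1.77, so the loss was larger where no cross-binding is annotated. Of genes tested, 5.38% had a lower difference than Socs3.

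Socs2, a SOCS gene best known for restraining growth hormone signalling, read 1932.2 and 681.3 (2.84-fold lower, log2 difference -1.48). Of genes tested, 2.33% had a lower difference. Its other probe sets read 910.7 and 443.3 (2.05-fold lower), 113.1 and 42.7 (2.65-fold lower), and 75.9 and 30.4 (at least 2.13-fold lower). A further pair read 64.9 and 34.8, and 15.4 and 10.5, the latter below the controls on both arrays. All 5 Socs2 probe sets above the filter had the same direction, with log2 differences of -1.48 to -0.67 and a mean of -1.06. The mean over all 6, with the probe set below the controls, was -0.92, short of the 2-fold call.

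**Figure D2:**
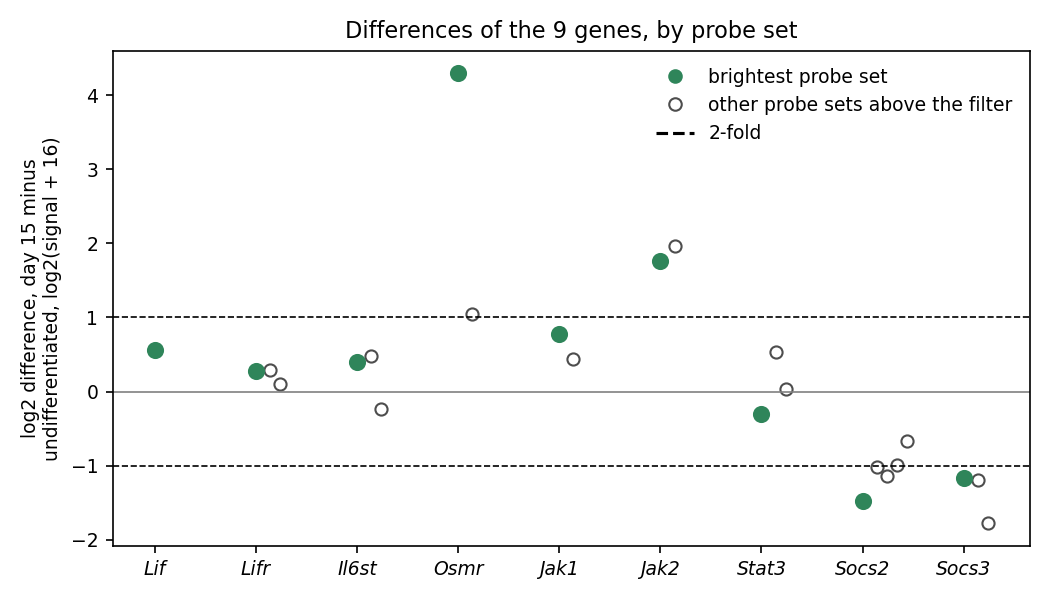
Log2 difference (day 15 minus undifferentiated, on log2(signal + 16)) of each gene, with the brightest probe set filled, other probe sets above the filter open and dashed lines at 2-fold. Both Jak2 and both Osmr probe sets lie above the upper line, all 3 Socs3 probe sets lie below the lower line, and Il6st and Stat3 have probe sets on both sides of 0.

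The scaling of the arrays moved all 9 differences. The hybridization controls had a mean log2 ratio of day 15 over undifferentiated of 0.39, and scaling on them moved the median gene by -0.36, while quantile normalization moved it by -0.13. Of all genes past 2-fold, 66.3% were higher at day 15 as deposited, 54.6% with quantile normalization and 37.7% with scaling on the hybridization controls. Under both scalings Osmr (4.22 and 3.92) and Jak2 (1.48 and 1.40) remained past 2-fold higher, and Socs2 (-1.45 and -1.86) and Socs3 (-1.13 and -1.55) past 2-fold lower. Lif kept a positive difference of 0.24 and 0.22, and Jak1 of 0.69 and 0.40.

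**Figure D3:**
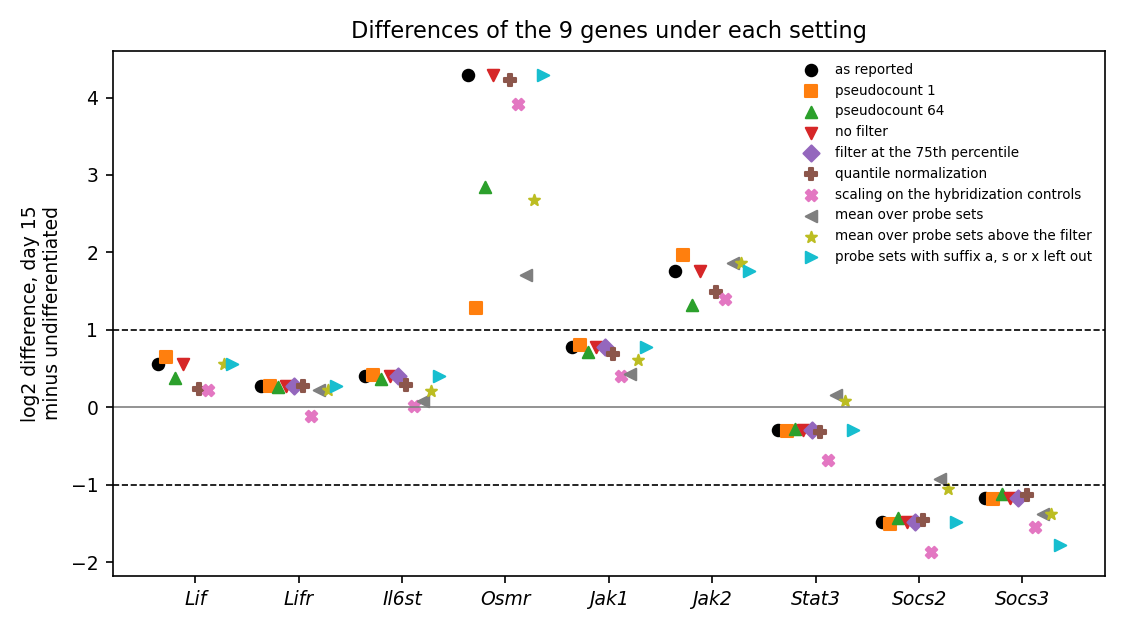
Log2 difference of each gene (day 15 minus undifferentiated) as reported (black) and under 9 other settings, with dashed lines at 2-fold; a gene has no point under a setting where it lay below the filter. Osmr ranges from 1.29 to 4.30 and Jak2 from 1.33 to 1.97, both above the upper line throughout, while Socs2 comes above the lower line at -0.92 with the mean over probe sets.

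The rest of the pathway was read from lists of 60 further genes, 55 of them measured and 47 above the filter. Of these 47, 9 were higher and 10 lower at day 15 past 2-fold (against 16.5% and 8.41% of all genes tested), with a median log2 difference of -0.19. Among the other ligands of gp130, 1 of 3 above the filter was called. Il11, the interleukin 11 gene, read 21.2 and 117.2 (at least 3.29-fold higher). Il11 passed the filter only through its day 15 signal, so its direction was set by the filter. Its call was lost under the filter at the 75th percentile. Ctf1, the cardiotrophin gene, read 113.1 and 114.0, and Osm, which encodes oncostatin M, read 106.8 and 62.4 (1.71-fold lower). Il6, the interleukin 6 gene, lay below the filter at 0.8 and 85.0, at least 2.39-fold higher at day 15, and was named after its values were seen. Among the other receptor chains 2 passed the filter. Il6ra, the interleukin 6 receptor chain, read 47.5 and 111.1 (2.34-fold higher), with a log2 difference of 1.00 that only just reached the call and was lost in 6 of 9 alternatives (a pseudocount of 64, both scalings, the mean over all probe sets, the stricter filter, and its suffixed probe set left out). Cntfr, the ciliary neurotrophic factor receptor chain, read 61.7 and 80.8.

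Among other JAK and STAT genes, 1 of 7 was higher and 1 of 7 lower past 2-fold, counts near the 16.5% and 8.41% of all genes tested. Their median of 0.0040 became -0.26 with quantile normalization and -0.37 with scaling on the hybridization controls. Stat5b, a STAT of growth hormone and cytokine receptors, read 49.6 and 246.5 (4.97-fold higher), a call lost with suffixed probe sets left out. Stat4, the STAT of interleukin 12 signalling, read 140.1 and 47.4 (2.96-fold lower), a call lost with a pseudocount of 64. Both lay below the filter at the 75th percentile. Tyk2, a Janus kinase that gp130 can also engage, read 400.7 and 193.3, with a log2 difference of -0.99 just short of the call, which it reached with a pseudocount of 1 and with both scalings. Stat6 was level at 448.0 and 449.3.

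Among 15 other feedback and adaptor genes, 1 was at least 2-fold higher and 2 lower, near the shares of all genes tested (16.5% and 8.41%). Their median was -0.27, and 0.12 with suffixed probe sets left out. Socs5, another SOCS family gene, read 169.0 and 722.8 (4.28-fold higher), opposite in direction to Socs2 and Socs3, and its second probe set had a log2 difference of 2.95. Gab1, an adaptor that links gp130 to the RAS and PI3K routes, read 2538.3 and 663.4 (3.83-fold lower), and its 3 probe sets ran from -1.99 to -1.91. Pias2, of the PIAS family of STAT regulators, read 2310.1 and 1101.3 (2.10-fold lower), but its probe sets ran from -1.06 to 0.011, and the call was lost with quantile normalization, with either mean over probe sets and with suffixed probe sets left out. The brightest genes within 2-fold were the phosphatase genes Ptpn2, at 2545.0 and 1986.0, and Ptpn11, which encodes SHP2, at 910.5 and 1739.2.

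Of 11 LIF-STAT3 targets of stem cells, 6 were at least 2-fold lower at day 15 and 0 higher, with a median log2 difference of -1.30, against 8.41% lower and a median of 0.00052 for all genes tested. The other 5 lay within 2-fold. Among 8 pluripotency markers 6 were at least 2-fold lower, with a median of -1.24, so a fall of this size was not particular to the targets. Pramel7 read 270.8 and 23.0 (at least 7.61-fold lower), and passed the filter only through its signal in undifferentiated cells. Sgk1, a serum and glucocorticoid regulated kinase gene, read 4562.9 and 920.6 (4.96-fold lower), and Gbx2, a homeobox gene that sustains self-renewal, read 583.3 and 136.1 (4.29-fold lower). Pim3, a survival kinase gene, read 3613.4 and 1283.6 (2.82-fold lower), though its probe sets ran from -1.83 to 0.079. Bcl3 read 493.0 and 175.8 (2.80-fold lower), and Tfcp2l1, a transcription factor of the naive state, read 1809.3 and 724.3 (2.50-fold lower). The brightest targets within 2-fold were Klf4, at 3267.2 and 2859.3, and Klf5, at 2790.2 and 1492.0. The median was -0.72 with the mean over all probe sets, where Tfcp2l1 lost its call. Pramel7 lost its call with suffixed probe sets left out and under the stricter filter at the 75th percentile.

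STAT3 targets known from other cell types had a median on the other side of 0. Of the 9 above the filter, 5 were higher at day 15 past 2-fold and 1 lower (against 16.5% and 8.41% of all genes tested), with a median of 1.02. Without a filter the median over all 12 was 0.34, and with scaling on the hybridization controls it was 0.63. The immediate-early gene Fos read 128.9 and 2060.2 (log2 difference 3.84), and the angiogenic factor gene Vegfa 141.3 and 570.9 (4.04-fold). The C/EBP genes followed, Cebpd at 88.4 and 325.6 (3.68-fold) and Cebpb at 279.7 and 944.0 (3.38-fold). The probe sets of Cebpd ran from 0.58 to 1.71, so the lower one stayed within 2-fold. Cebpd also lost its call under the filter at the 75th percentile. The protease inhibitor gene Timp1 read 1299.4 and 2653.5 (2.04-fold higher), a call lost with a pseudocount of 64 and with scaling on the hybridization controls. The adhesion gene Icam1 read 861.3 and 389.9 (2.21-fold lower). Mcl1 (5673.1 and 5465.8) and the cyclin gene Ccnd1 (2643.8 and 3407.3) were the brightest within 2-fold. Many other signals induce these genes, and their fitness as a readout of STAT3 was not tested.

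**Figure D4:**
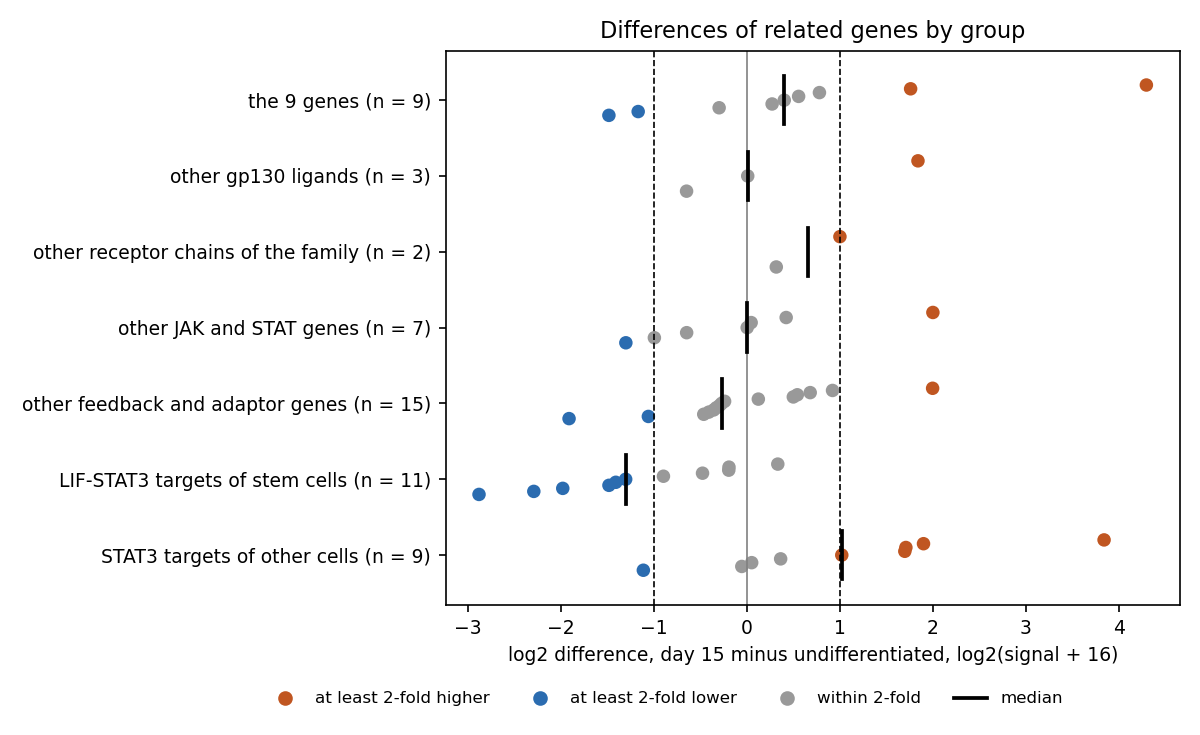
Log2 differences (day 15 minus undifferentiated, on log2(signal + 16)) of the genes above the filter in each list, with n the number of genes, points coloured by the 2-fold call, black bars at the median and dashed lines at 2-fold. The LIF-STAT3 targets of stem cells have a median of -1.30 and the STAT3 targets of other cells a median of 1.02, and the 9 genes spread from -1.48 to 4.30.

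RNA of cell type markers also differed between the arrays. Of all genes tested, 16.5% were higher and 8.41% lower past 2-fold, and the marker counts here stand against these shares. In undifferentiated cells all 8 pluripotency markers were bright (Pou5f1 at 7837.8), and at day 15 they were still present (Pou5f1 at 2932.0). At day 15, 6 of 8 were at least 2-fold lower, and the summed signal went from 41650.9 to 18828.9. Of 9 measured fibroblast and feeder markers, 8 were higher at day 15 past 2-fold and the summed signal went from 2283.3 to 38631.8. In undifferentiated cells 4 of the 9, Col1a1 among them at 17.2, lay below the controls without target. Those 4 passed the filter only through their day 15 signals. Each of 5 smooth muscle markers was higher past 2-fold (summed signal 1211.6 and 28892.5), as were 4 of 6 visceral endoderm markers above the filter (149.9 and 2696.0). The smooth muscle markers Actg2 and Cnn1, and the endoderm markers Afp, Ttr and Gata6, passed the filter only through their day 15 signals. Both counts are thus partly set by the filter. Among leukocyte markers 3 of 4 above the filter were higher, with the defining marker Ptprc at 4.8 and 14.4, below the controls. Of those 3, Tyrobp and C1qb passed the filter only through their day 15 signals, so their direction was set by it. The remaining marker above the filter, Laptm5, read 949.2 and 490.3. It held most of the leukocyte sum in undifferentiated cells (1052.8, and 1063.0 at day 15), so the level sum hides the rise of the 3. Of 4 endothelial markers above the filter 2 were lower (summed signal 625.7 and 399.6). Summed signals cover all measured markers of a list, also those below the filter. The part of these cell types in the differences of Osmr, Jak2, Socs2, Socs3 and the target lists was not tested. In RNA of a whole culture, fewer cells of a type and less RNA per cell cannot be told apart.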

How the data were processed

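Total RNA of both cultures was labelled as biotinylated cRNA and hybridised to Affymetrix mouse expression arrays, per the labels' protocols. The deposited values are linear signal intensity per probe set. With the top and bottom 2% trimmed, both arrays had a mean of 250.0, so the authors' intensity values came scaled. The summarising software is not given in the sources used here, and no detection calls were used. The 64 control probe sets were set aside. Of 45037 others, 34945 named 1 gene, 932 several and 9160 none, through the platform annotation. Of those that named 1 gene, 34741 took their symbol from RefSeq (GRCm38.p6) by gene identifier, whether or not it differed. Log2(signal + 16) values were compared in Python 3.11.15 with pandas 2.3.3. The size call was tested on simulated data in which bright genes were changed by well over 2-fold. Recovery of dim genes, or of changes near 2-fold, was not covered. The number of arrays limits the precision: log2 differences varied between probe sets of a gene with an SD of 0.53, which holds no culture-to-culture variation. The bound of 35.6 is the highest of 15 bacterial probe sets without target, and was chosen after the values were seen. The genes named are the 9, each further list's genes past 2-fold and its 2 brightest genes within it. The members and lists were chosen with earlier results of these data known. Alternatives changed the pseudocount, filter, scaling and choice of probe set.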

Additional observations from a re-analysis of the deposited data

How the results depend on the processing

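Each of 9 alternatives changed 1 choice, and 1 of them, the mean over the probe sets above the filter, was chosen after seeing the data. No paired analysis was possible because each group has 1 array. Of the 9 genes, the number higher past 2-fold was 2 in every alternative but the filter at the 75th percentile, where it was 0 because Osmr and Jak2 lay below that filter. The number lower past 2-fold was 2 in every alternative but the mean over all probe sets, where it was 1 (Socs3). The mean over probe sets above the filter kept Socs2. Over all genes, the filter at the 75th percentile gave 907 higher in place of 1975, with fewer genes tested, and scaling on the hybridization controls gave 2248 lower in place of 1006. Of 245 other values, 216 moved by less than the SD between probe sets or 1.5 times their count, and 29 moved by more. Among genes past 2-fold, direction was followed only for Osmr, Jak2, Socs2 and Socs3, and 0 of them changed it. The further lists entered only as counts and medians. Lifr, with scaling on the hybridization controls, and Stat3, with either mean over probe sets, both within 2-fold, changed sign. So did the median of the 9 genes with the filter at the 75th percentile (-0.013). Medians of further lists changed sign as well. That of other gp130 ligands was 0.010, and -0.33 under both scalings. The median of other receptor chains was 0.66, and -0.039 without a filter. Medians of the JAK and STAT list and of the feedback and adaptor list also changed sign in some settings. Signals near or below 35.6 set no order, which limits Osmr and the dimmer Jak2 probe set in undifferentiated cells.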

Other observations

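Several of the 9 genes lie beside relatives in the genome, by order among protein-coding genes in RefSeq (GRCm38.p6). Osmr and Lifr are neighbours on chromosome 15, with log2 differences of 4.30 and 0.27, and the gene on the other side of Osmr, Rictor, which encodes a subunit of the mTORC2 kinase complex, had 0.26 (signals 369.9 and 446.6). Lif and Osm are neighbours on chromosome 11, with 0.56 and -0.65. Stat3 lies between Stat5a (0.42) and Cavin1, a caveolar coat gene, which read 105.8 and 1096.2 with a log2 difference of 3.19 beside -0.30 for Stat3. Rcl1, next to Jak2 on chromosome 19, read 1284.5 and 568.5 (-1.15) where Jak2 had 1.76. Socs2 and its neighbours Cradd (-0.89) and Mrpl42 (-0.73) on chromosome 10 had differences of the same sign. On chromosome 11, Socs3 (-1.17) shared its sign with its neighbour Pgs1 (-0.68). Its other neighbour, Tha1, had the opposite sign (0.86) but lay below the filter at 15.3 and 40.9. Of 11960 genes tested, 5976 had a negative difference, so like signs between neighbours are common. All these neighbours were named after their values were seen.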
